A study of Mus musculus with 15 samples.

Results

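Mammary glands of BALB-neuT mice aged 19 weeks were compared with glands of BALB-neuT mice aged 10 weeks. The arrays were chosen by the age in their source labels, which gave 9 of the 15 arrays of the series, 4 at week 19 and 5 at week 10. BALB-neuT is a BALB/c line with an activated rat HER-2/neu oncogene behind the mouse mammary tumour virus promoter, which is active in mammary epithelium. No treatment or second genotype is named for any group. Each array carried total RNA of a gland whole mount from a separate animal, per the series design, so the replicates are animals and the RNA comes from all cells of the gland. Every mouse carried the transgene, and what a gland without it would show between these ages cannot be told apart from the effect of carcinogenesis. The 2 arrays at week 15 and the 4 at week 22 entered the estimate of spread and are quoted only to place the values of week 19.

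In BALB-neuT females the mammary epithelium passes from hyperplasia to carcinoma as the mice age, and leukocytes enter the tissue around the lesions. Chemokines that bind the receptor CCR7 are made by lymphoid stroma and lymphatic vessels and draw T cells and dendritic cells into lymphoid tissue. Caseins are milk proteins of secretory alveolar cells, whose genes respond to prolactin through the transcription factor STAT5.

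The arrays were of similar quality at both ages. The share of probes above background, which means a signal-to-noise value no lower than 3 with a flag under 5000, was 51.43 ± 1.63% at week 10 (SD, n = 5) and 51.75 ± 1.64% at week 19 (SD, n = 4), a difference of 0.32 percentage points (two-sided exact permutation p = 0.778). The median signal of an array before normalization lay between 958.1 and 1205.1 at week 10 and between 835.4 and 1472.8 at week 19. The file headers give scan day 1 for week 10 replicates 1 to 4 and week 19 replicate 1, and scan day 2 for the other 4 arrays, so scan day goes with age in part. Array series were formed here from runs of the serial numbers in the labels, which name no series. Scan days and series are called batches below, though the submitters describe neither as a batch. Series 4 holds week 10 replicates 1 to 3 and week 19 replicate 3. Series 3 holds week 10 replicates 4 and 5 and week 19 replicates 2 and 4. Week 19 replicate 1 is in series 1. Arrays were correlated over the 20867 probes kept, those above background on 50% or more of the arrays of any age, after quantile normalization. The correlation of log2 signals was 0.921 to 0.969 within week 10 (10 pairs of arrays) and 0.951 to 0.968 within week 19 (6 pairs). Between the ages it was 0.879 to 0.938 (20 pairs). These pairs share arrays and are given as a description.

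Levels below are log2 signals after quantile normalization, as mean ± SD over arrays, and changes are log2 fold changes, week 19 minus week 10, ± SE. A gene was called when its limma p, adjusted by Benjamini-Hochberg over all 20867 probes kept, was under 0.05. Of these probes 2612 were called, which is 12.5%, with 1519 higher at week 19 (7.28%) and 1093 lower (5.24%). The increases reached further than the decreases. At least a 4-fold change was found for 528 of the higher probes and 74 of the lower ones, and at least 16-fold for 116 and 2. The median size was 2.95-fold among the higher and 2.27-fold among the lower, while the median log2 change of all probes kept was -0.02. The number of calls varied with the arrays in the fit. With 1 array left out it ran from 1415 (without week 19 replicate 3) to 2752 (without week 10 replicate 1). It was 1652 without week 19 replicate 2, and it came to 1683 when scan day was a term of the fit. Having fewer arrays was not told apart from the part of the animal left out.

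**Figure D1:**
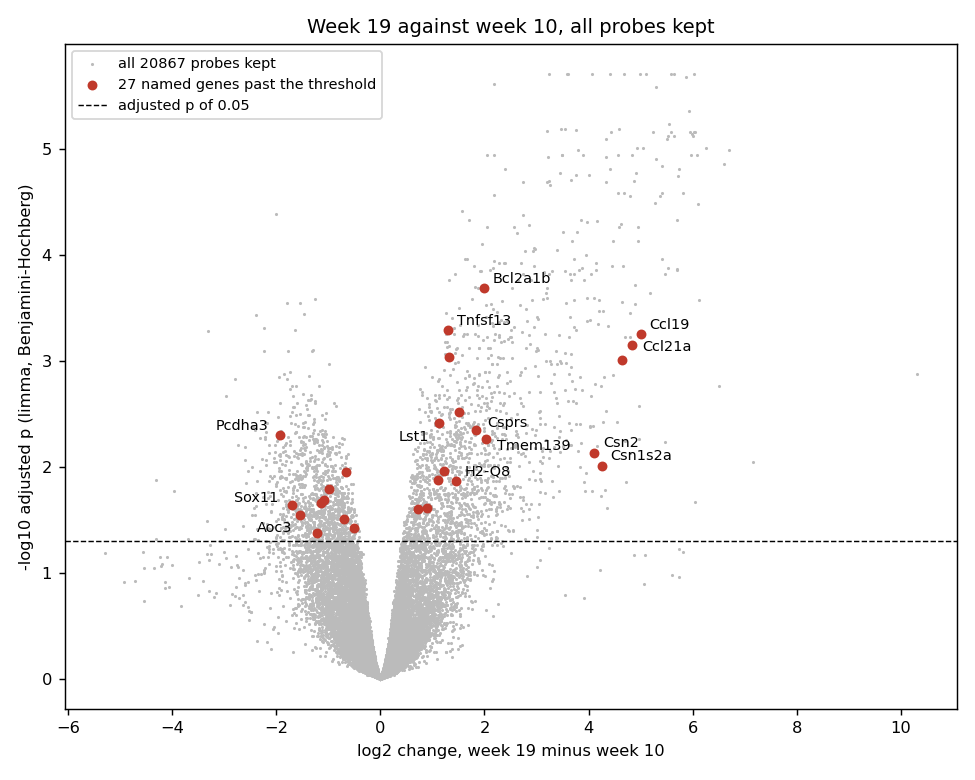
Each grey point is 1 of the 20867 probes kept, placed by its log2 change from week 10 to week 19 and by the -log10 of its limma adjusted p, with the 27 named genes past the threshold (dashed line) in red. The right arm reaches further than the left, with 245 called probes at least 8-fold higher and 6 at least 8-fold lower.

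Some probes passed from the floor of the assay to a measured level. At week 19 126 probes were above background on all 4 arrays and at week 10 on none, and 117 of these were called higher. The opposite pattern, all 5 arrays at week 10 and none at week 19, was found for 21 probes, of which 14 were called lower. Among called probes 840 of the higher and 836 of the lower were above background on all 9 arrays. Most probes carry Celera gene numbers that could not be given a gene name. Among all probes without a gene name, 2 higher ones had the smallest p. The probe of mCG14724.3 went from 12.37 ± 0.18 to 15.60 ± 0.28 (3.23 ± 0.19, limma adjusted p = 1.98e-06). That of mCG1037964.1 went from 8.45 ± 0.15 to 12.04 ± 0.24 (3.59 ± 0.22, adjusted p = 1.98e-06). Among unnamed lower probes the smallest p belonged to the clone number AK020287.1 (-2.0 ± 0.2, adjusted p = 4.1e-05) and to mCG54122.2 (-1.26 ± 0.16, adjusted p = 0.000261).

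A gene name was available for 207 genes among the probes kept. Of these 27 were called, which is 13.04%, with 17 higher (8.21%) and 10 lower (4.83%), shares close to those of all probes. Values of week 10 and week 19 arrays did not overlap for 24 of the 27, the exceptions being Mup1, Olfr1189 and Sox11. Of all probes kept, 9.37% lay wholly higher at week 19 and 7.7% wholly lower. The 27 genes were chosen by the same contrast, so this share is largely fixed by the choice. Among all called probes, 1370 of the 1519 higher and 909 of the 1093 lower did not overlap either. At least a 2-fold change was found for 15 of the 17 higher genes and 6 of the 10 lower. Most defining markers of epithelium, fat and leukocytes could not be named on this array, so the tissue label was checked only through the few named genes below.

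**Figure D2:**
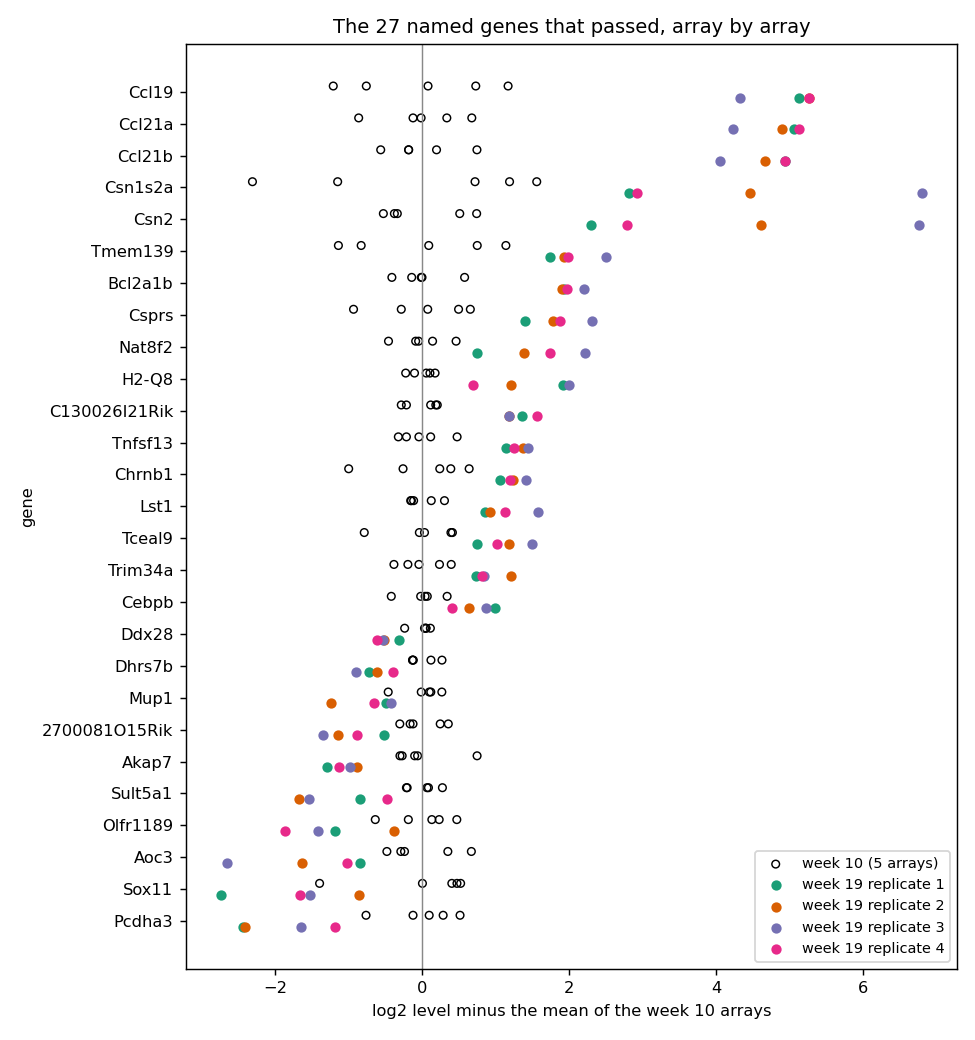
For the 27 named genes called, each point is the log2 level on 1 array minus the gene's week 10 mean, with the 5 week 10 arrays as open circles and the 4 week 19 arrays coloured by replicate. The chemokine and casein genes lie farthest to the right, and only Mup1, Olfr1189 and Sox11 have week 19 points among those of week 10.

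The 3 named genes with the greatest increase were ligands of CCR7. Ccl19 (NM_011888.2) measured 10.54, 10.09, 11.38, 12.03 and 12.47 on the week 10 arrays in order of replicate, and 16.43, 16.56, 15.63 and 16.57 on the week 19 arrays. The lowest week 19 animal stood 3.16 log2 units above the highest week 10 animal. Ccl19 rose 31.9-fold, from 11.30 ± 0.99 (n = 5) to 16.30 ± 0.45 (n = 4), a log2 change of 5.00 ± 0.69 (limma adjusted p = 0.000565).

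Ccl21a (NM_011124.3), which binds the same receptor, measured 13.23, 12.38, 13.12, 13.92 and 13.58 at week 10 and 18.30, 18.14, 17.48 and 18.38 at week 19. The gap between the ages was 3.56 log2 units and was wider than the range within either age. It rose 28.5-fold, by 4.83 ± 0.69 from 13.25 ± 0.58 to 18.08 ± 0.41 (adjusted p = 0.000718). Ccl21b (NM_011335.1) is a near-identical copy of Ccl21a, so their probes may read the same transcripts and are not separate evidence. Its values were 13.75, 13.37, 13.75, 14.68 and 14.13 at week 10 and 18.88, 18.60, 17.99 and 18.88 at week 19. It rose 25.1-fold (4.65 ± 0.70, adjusted p = 0.000991), and by 4.89 ± 0.62 on its other probe (adjusted p = 0.00029). These 3 genes were all of the list of lymphoid tissue chemokines that could be measured, and the list was written with earlier results known. The 3 genes had a median log2 change of 4.83, against -0.02 over all probes. Among all called probes their changes ranked 47, 58 and 70 by size.

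The week 19 chemokine levels were above every array of both neighbouring ages. At week 15 Ccl19 measured 15.04 and 11.72, so 1 of the 2 animals lay near the week 19 values and the other within the week 10 range. At week 22 it measured 12.71, 12.45, 14.40 and 14.67, all below the lowest week 19 animal. The difference between weeks 22 and 19 was -2.74 ± 0.73 for Ccl19 (limma adjusted p = 0.392) and -2.50 ± 0.73 for Ccl21a (adjusted p = 0.454), and neither passed. From week 15 to week 19 Ccl19 changed by 2.92 ± 0.90 (adjusted p = 0.0477), and Ccl21a by 2.56 ± 0.89 (adjusted p = 0.0707), which did not pass. The call of Ccl19 over that interval was lost without any 1 of the week 19 animals (2.83 to 3.14, adjusted p up to 0.0891) and without week 10 replicate 1, 4 or 5, which enter only the spread (adjusted p up to 0.0575). It was also lost with scan day (2.89, adjusted p = 0.0664) or array series (2.85, adjusted p = 0.17) in the fit, and with median centring, no filter, array weights or week 10 replicates 1, 2 and 4, which carry hair gene signal, left out (adjusted p from 0.056 to 0.0783). In bulk tissue, fewer cells of a type and less RNA per cell cannot be told apart. A lymph node lies within the mouse mammary fat pad, and the labels do not say how much of one each preparation held. Its part in these values was not tested, since no defining marker of T cells, B cells or lymphatic vessels could be named.

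**Figure D3:**
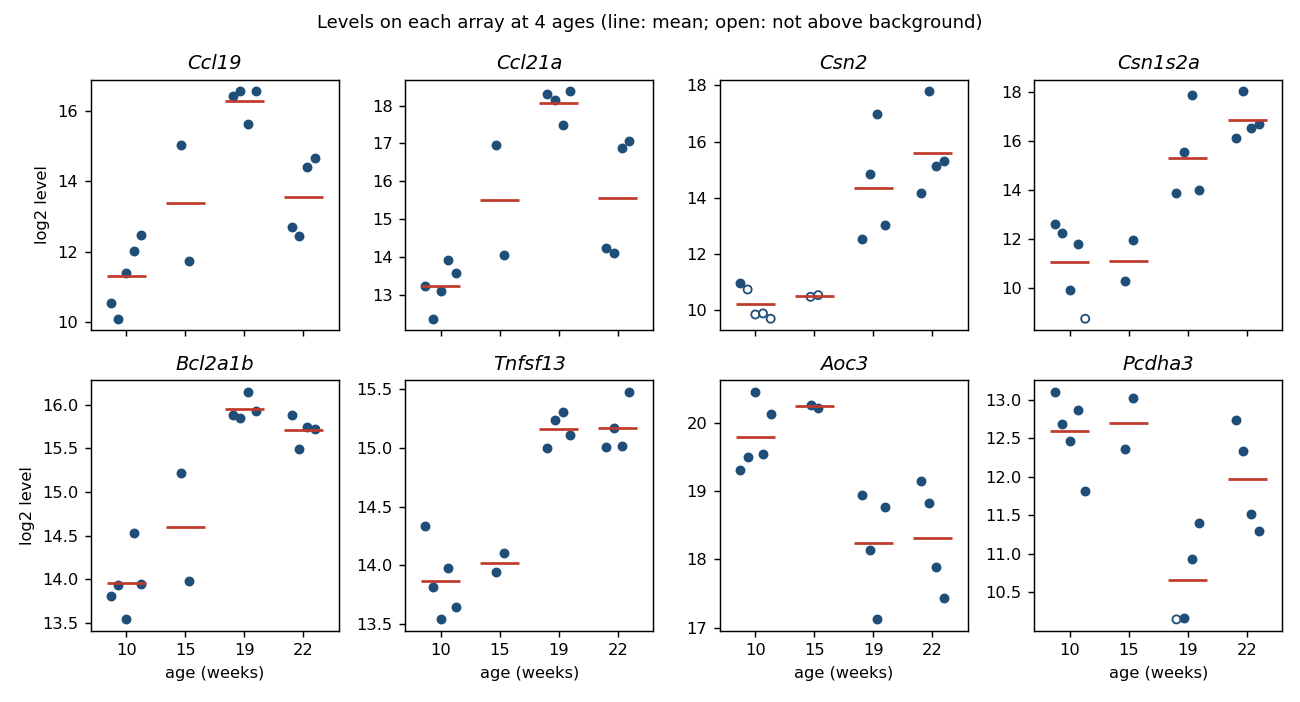
Log2 levels of 8 genes on each array at weeks 10, 15, 19 and 22, with the mean of each age as a red line and open points where the probe was not above background. Ccl19 and Ccl21a are highest at week 19, while Csn2 and Csn1s2a spread over several log2 units at week 19 and have their highest single values at week 22.

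Promoter sequence was available in the RefSeq table of GRCm38.p6 for 21 of the 27 genes. Windows run from 250 bases before the transcript start to 30 after it and were searched on both strands for an interferon-type motif, TTTC followed by any 2 bases and TTTC again, and for TTCNNNGAA, a STAT-type motif that is its own reverse complement. The first occurred in 3.28% of 32851 promoter windows and the second in 7.83%. The 2 chemokine promoters are shown because they belong to the largest named increases. Ccl19 lies at chr4:42756336-42756615 on the minus strand and Ccl21a at chr4:42773962-42774241 on the minus strand. Each is written in its gene's 5′ to 3′ direction, and capitals mark a match.
Ccl19: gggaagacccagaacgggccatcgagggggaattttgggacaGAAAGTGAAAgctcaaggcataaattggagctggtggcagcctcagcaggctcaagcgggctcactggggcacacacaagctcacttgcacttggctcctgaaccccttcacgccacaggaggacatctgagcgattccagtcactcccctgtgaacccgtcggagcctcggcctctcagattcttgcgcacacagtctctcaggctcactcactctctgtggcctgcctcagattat
Ccl21a: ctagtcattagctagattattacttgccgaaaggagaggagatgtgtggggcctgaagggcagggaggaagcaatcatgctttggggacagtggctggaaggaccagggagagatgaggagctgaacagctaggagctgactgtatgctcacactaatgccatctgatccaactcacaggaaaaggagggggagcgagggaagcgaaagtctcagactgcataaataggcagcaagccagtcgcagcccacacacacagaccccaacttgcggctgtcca
The Ccl19 window holds the interferon-type motif in reverse orientation at -208 to -199, and the Ccl21a window holds neither motif. A match is a description of letters, not a site or a cause.

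The measured genes of the leukocyte list used here were higher at week 19 as well. Bcl2a1b (NM_007534.1), an anti-apoptotic BCL2 relative of leukocytes with near-identical copies that may share its signal, measured 13.81, 13.94, 13.54, 14.53 and 13.95 at week 10. At week 19 it measured 15.88, 15.85, 16.15 and 15.93. The week 19 animals lay within a narrow band, 1.32 log2 units above the highest week 10 animal. Bcl2a1b rose 3.98-fold (1.99 ± 0.24, limma adjusted p = 0.000206), the smallest adjusted p among the named genes.

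Csprs (NM_033616.2), a member of a repeated gene cluster and of the leukocyte list used here, measured 10.57, 11.35, 9.92, 11.51 and 10.93 at week 10 and 12.25, 12.64, 13.16 and 12.73 at week 19. It rose 3.58-fold (1.84 ± 0.34, adjusted p = 0.00453), with no overlap between the ages. Tnfsf13 (NM_023517.1) encodes APRIL, a survival ligand of B cells and plasma cells. It lay between 13.54 and 14.34 at week 10 and between 15.00 and 15.31 at week 19 and rose 2.46-fold (1.30 ± 0.18, adjusted p = 0.000513). The leukocyte transcript Lst1 (NM_010734.1) lay between 12.74 and 13.20 at week 10 and between 13.75 and 14.48 at week 19 and rose 2.17-fold (1.12 ± 0.20, adjusted p = 0.0039). All 4 measured members of the leukocyte list passed upward, with a median log2 change of 1.57, against 7.28% of all probes called higher and a median of -0.02. The list was written with earlier results of these data known.

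Of 2 measured genes of antigen presentation and interferon response, 1 passed. H2-Q8 (NM_023124.2), a class Ib histocompatibility gene with close relatives, measured 12.48, 12.32, 12.53, 12.60 and 12.20 at week 10 and 14.34, 13.63, 14.42 and 13.11 at week 19. It rose 2.74-fold (1.45 ± 0.34, adjusted p = 0.0137), a call lost without week 19 replicate 3 (1.27, adjusted p = 0.0539) and without the 3 week 10 arrays that carry hair gene signal (1.51, adjusted p = 0.0695). Its relative H2-Q7 had a change of 0.59 ± 0.20 (adjusted p = 0.0682), with no overlap between the ages, and the median of both was 1.02. Trim34a (NM_030684.1), not on that list and an interferon-inducible member of the TRIM family, lay between 9.85 and 10.63 at week 10 and between 10.97 and 11.45 at week 19 and rose 1.87-fold (0.90 ± 0.23, adjusted p = 0.0243). That call was lost with scan day in the fit (0.70, adjusted p = 0.0906), without the arrays with hair signal (0.59, adjusted p = 0.228), and without week 10 replicate 2 (0.80, adjusted p = 0.0502), week 19 replicate 2 (0.79, adjusted p = 0.0798) or week 19 replicate 3 (0.92, adjusted p = 0.0584). Its promoter window, chr7:104244207-104244486 on the plus strand, is shown because it was the only other one with the interferon-type motif, in capitals at 11 to 20 after the start.
Trim34a: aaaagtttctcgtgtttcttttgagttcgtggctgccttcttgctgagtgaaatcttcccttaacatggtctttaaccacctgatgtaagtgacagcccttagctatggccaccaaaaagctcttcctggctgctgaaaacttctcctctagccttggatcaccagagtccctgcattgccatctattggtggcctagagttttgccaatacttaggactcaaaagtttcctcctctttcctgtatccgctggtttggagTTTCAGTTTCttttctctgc

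Milk protein genes formed the other large increase. Csn1s2a (NM_007785.1), an alpha-S2 casein, measured 12.63, 12.26, 9.92, 11.79 and 8.76 at week 10 and 13.88, 15.54, 17.88 and 14.00 at week 19. The ages did not overlap, but each was spread over about 4 log2 units, and week 10 replicate 5 was not above background. It rose 19.1-fold, from 11.07 ± 1.66 to 15.32 ± 1.87 (4.25 ± 0.92, limma adjusted p = 0.0098).

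Csn2 (NM_009972.1), beta-casein, measured 10.97, 10.74, 9.85, 9.89 and 9.70 at week 10, where only replicate 1 was above background, and 12.52, 14.84, 16.99 and 13.02 at week 19. It rose 17.3-fold (4.11 ± 0.84, adjusted p = 0.00738), a size that depends on week 10 values near the floor of the assay. The order of the 4 week 19 animals was the same for both genes, with replicate 3 highest and replicate 1 lowest. Without week 19 replicate 3 the changes were 3.40 and 3.23 and both genes still passed. Over all 9 fits with an array left out, the highest limma adjusted p was 0.0322 for Csn1s2a and 0.0267 for Csn2.

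The other 2 measured milk protein genes did not pass. Csn1s2b, another casein, was above background on 1 week 10 array and on week 19 replicates 2 and 3, and its change was 1.39 ± 0.86 (adjusted p = 0.322). Wap, which encodes whey acidic protein, was above background on 1 week 10 array and on week 19 replicates 1 and 3, and its change was 0.77 ± 0.43 (adjusted p = 0.261). The median log2 change of the 4 milk genes was 2.75, with 2 called higher against 7.28% of all probes. Their list was also written with earlier results of these data known. At Csn1s2b and Wap the highest week 19 value was again in replicate 3, at 12.36 and 11.18. The genes of the transcription factors through which prolactin acts, named here after their values were seen, had changes of -0.47 ± 0.22 for Stat5a (adjusted p = 0.174) and -0.09 ± 0.16 for Stat5b (adjusted p = 0.763).

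At week 15 Csn2 was at 10.48 and 10.54, not above background on either array. The change from week 15 to week 19 was 3.83 ± 1.09 for Csn2 (adjusted p = 0.0373) and 4.20 ± 1.19 for Csn1s2a (adjusted p = 0.0366), with only 2 arrays at week 15. Neither passed with scan day in the fit (adjusted p = 0.0525 and 0.0537), with array series (adjusted p = 0.0914 and 0.0818), with array weights (adjusted p = 0.0753 and 0.0863) or with no filter (adjusted p = 0.0581 and 0.0568), and Csn2 did not without the arrays with hair signal (adjusted p = 0.0605). Both calls were lost without week 19 replicate 2 (3.67, adjusted p = 0.0759, and 4.13, adjusted p = 0.0710) and without replicate 3 (2.95, adjusted p = 0.0710, and 3.35, adjusted p = 0.0779). From week 19 to week 22 their changes were 1.26 ± 0.89 (adjusted p = 0.825) and 1.53 ± 0.97 (adjusted p = 0.79). Of the 21 promoters found, those of Csn2 and Csn1s2a were the 2 with the STAT-type motif. It occurs in 7.83% of all 32851 windows, so 2 of 21 is close to the share of any promoters. They are shown for that reason, at chr5:87699396-87699675 on the minus strand and chr5:87774200-87774479 on the plus strand. Capitals mark the motif, at -93 to -85 in Csn2 and at 21 to 29 after the start in Csn1s2a.
Csn2: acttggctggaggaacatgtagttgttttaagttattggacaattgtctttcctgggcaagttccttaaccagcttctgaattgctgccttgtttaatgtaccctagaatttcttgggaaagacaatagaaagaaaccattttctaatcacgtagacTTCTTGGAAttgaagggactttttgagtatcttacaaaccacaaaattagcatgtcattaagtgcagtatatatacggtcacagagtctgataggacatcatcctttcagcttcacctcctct
Csn1s2a: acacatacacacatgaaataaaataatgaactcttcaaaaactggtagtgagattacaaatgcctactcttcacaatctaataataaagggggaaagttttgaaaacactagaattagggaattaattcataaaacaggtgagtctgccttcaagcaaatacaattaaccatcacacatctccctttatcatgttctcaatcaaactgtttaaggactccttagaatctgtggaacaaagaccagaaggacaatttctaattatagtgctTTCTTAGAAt

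Of 4 measured genes on the list of luminal and secreted or surface epithelial genes, called the luminal list here, 2 passed upward. The list was written with earlier results of these data known. Tmem139 (NM_175408.2), a membrane protein gene, measured 11.88, 11.49, 9.60, 10.83 and 9.91 at week 10, with replicates 3 and 5 not above background. At week 19 it measured 12.48, 12.67, 13.24 and 12.72 and had risen 4.09-fold (2.03 ± 0.39, limma adjusted p = 0.00549). The acetyltransferase relative Nat8f2 (NM_053096.2) measured 8.42, 9.34, 8.79, 9.02 and 8.83 at week 10, not above background on any array. At week 19 it measured 9.63, 10.26, 11.10 and 10.62, above background on 3 of 4 arrays. Its estimated rise was 2.88-fold (1.52 ± 0.27, means 8.88 ± 0.34 and 10.40 ± 0.62, adjusted p = 0.00308). Both means include values not above background. The fold was the same when each week 10 value was set to the higher of its own signal and the lowest signal above background. That lowest signal was no higher than these week 10 values, so the step could not change the fold and is no check of it. The other 2 measured members of the luminal list did not pass. The keratin Krt23 had a change of 1.07 ± 0.45 (adjusted p = 0.134) and the secreted Wfdc2 one of -0.70 ± 0.60 (adjusted p = 0.493), and the median of the 4 genes was 1.30, with 2 of 4 called higher against 7.28% of all probes.

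The remaining increases were smaller. Chrnb1 (NM_009601.3), a subunit of the muscle acetylcholine receptor, lay between 12.18 and 13.82 at week 10 and between 14.24 and 14.60 at week 19 and rose 2.34-fold (1.23 ± 0.27, adjusted p = 0.0109). Tceal9 (NM_011712.1), of the transcription elongation factor A-like family, went from 16.92 ± 0.49 to 18.03 ± 0.31 (1.11 ± 0.26, adjusted p = 0.0135). Its call was lost without week 19 replicate 3 (0.98, adjusted p = 0.0531) and with scan day in the fit (0.96, adjusted p = 0.0548). Cebpb (NM_009883.1), a transcription factor of adipocytes, myeloid cells and mammary epithelium, went from 17.96 ± 0.27 to 18.68 ± 0.26 (0.72 ± 0.19, adjusted p = 0.0249). The ages were 0.06 log2 units apart, the change on its second probe was 0.59 ± 0.48 (adjusted p = 0.463), and the call was lost with scan day (0.67, adjusted p = 0.0751) or array series (0.65, adjusted p = 0.0549) in the fit. It was also lost without week 19 replicate 1, 2 or 3 (adjusted p up to 0.0807). C130026I21Rik (NM_175219.2), known by its clone name, lay between 11.53 and 12.02 at week 10 and between 12.99 and 13.38 at week 19 and rose 2.49-fold (1.32 ± 0.20, adjusted p = 0.000931).

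The largest named decreases were in genes of neural and stromal cells. Pcdha3 (NM_138662.1), a clustered protocadherin of neurons, measured 13.10, 12.68, 12.46, 12.87 and 11.82 at week 10 and 10.15, 10.17, 10.93 and 11.40 at week 19. It fell 3.79-fold (-1.92 ± 0.37, limma adjusted p = 0.00507), with a gap of 0.42 log2 units between the ages. Its week 22 values were 12.73, 12.33, 11.52 and 11.30, so replicates 1 and 2 of that age lay in the week 10 range. The change from week 19 to week 22 was 1.31 ± 0.39 (adjusted p = 0.462).

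Sox11 (NM_009234.3), a transcription factor of neural and other progenitor cells, measured 9.03, 10.95, 10.90, 10.43 and 10.83 at week 10 and 7.69, 9.56, 8.90 and 8.76 at week 19. Week 10 replicate 1 lay inside the week 19 range, and only replicate 2 was above background at week 19. Sox11 fell 3.25-fold (-1.70 ± 0.44, adjusted p = 0.0232), a call lost with array series in the fit (-1.43, adjusted p = 0.0659) and in 4 of 9 fits with an array left out, those without week 10 replicate 3 or 5 or week 19 replicate 1 or 3 (adjusted p up to 0.0654). The 2 measured genes of the nerve list both passed downward, with a median log2 change of -1.81, against 5.24% of all probes called lower and a median of -0.02. This list too was written with earlier results of these data known. Without the week 10 arrays that carry hair gene signal Pcdha3 did not pass (-1.48, adjusted p = 0.0731).

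Aoc3 (NM_009675.1), an amine oxidase of adipocytes and vessel walls, measured 19.30, 19.49, 20.45, 19.54 and 20.13 at week 10 and 18.94, 18.14, 17.12 and 18.76 at week 19. It fell 2.91-fold (-1.54 ± 0.42, adjusted p = 0.0288), with the lowest value in week 19 replicate 3. The call was lost without that animal (-1.17, adjusted p = 0.0986), without week 19 replicate 2 (-1.51, adjusted p = 0.0731), without week 10 replicate 3 or 5 (adjusted p = 0.0633 and 0.0648), with scan day in the fit (-1.31, adjusted p = 0.102) and with median centring in place of quantile normalization (-1.50, adjusted p = 0.0574). At week 15 both arrays lay within the week 10 range, and from week 15 to week 19 its change was a fall by 2.00 ± 0.54 on the log2 scale (adjusted p = 0.0313). That call was lost without week 19 replicate 2 or 3 (adjusted p = 0.0630 and 0.0697), with array series in the fit (-2.26, adjusted p = 0.052), with array weights (adjusted p = 0.0703) and with no filter (adjusted p = 0.0517).

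The other members of the fat and stromal list divided. Sult5a1 (NM_020564.1), a sulfotransferase, measured 14.44, 14.25, 13.96, 13.95 and 14.23 at week 10 and 13.32, 12.49, 12.63 and 13.68 at week 19 and fell 2.20-fold (-1.14 ± 0.29, adjusted p = 0.0218). Mup1 (NM_031188.1), a major urinary protein with many near-identical copies, measured 20.84, 20.69, 20.56, 20.67 and 20.11 at week 10 and 20.08, 19.33, 20.15 and 19.92 at week 19. It fell 1.63-fold (-0.70 ± 0.19, adjusted p = 0.0314), although the ages overlapped at week 10 replicate 5. With scan day in the fit neither passed (-0.92, adjusted p = 0.0837, and -0.62, adjusted p = 0.0997). Sult5a1 did not pass without week 19 replicate 2 or 3 either (adjusted p = 0.0745 and 0.0780), and Mup1 passed in 3 of 9 fits with an array left out (adjusted p up to 0.1). The lipid droplet protein gene Plin3 had a change of 0.37 ± 0.15 (adjusted p = 0.119). Of the 5 measured members 3 fell (5.24% of all probes did), Cebpb rose and Plin3 did not pass, with a median of -0.70. Like the others, this list was written with earlier results of these data known.

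The remaining 5 decreases belonged to no common list. Akap7 (NM_018747.2), which anchors protein kinase A, measured 11.94, 11.97, 12.99, 12.18 and 12.14 at week 10 and 10.95, 11.36, 11.26 and 11.11 at week 19 and fell 2.11-fold (-1.08 ± 0.27, adjusted p = 0.0207). It did not pass without week 19 replicate 1 or 3 (adjusted p = 0.0550 and 0.0501). Of its week 22 values of 12.76, 12.10, 11.37 and 11.86, the first and second lay within the week 10 range. Dhrs7b (NM_145428.1), a peroxisomal reductase of ether lipid synthesis, measured 17.19, 16.95, 17.34, 16.94 and 16.94 at week 10 and 16.35, 16.46, 16.17 and 16.67 at week 19. It fell 1.58-fold (-0.66 ± 0.15, adjusted p = 0.0112) and passed whichever of the 9 arrays was omitted.

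Ddx28 (NM_028038.1), a helicase of mitochondrial ribosome assembly, measured 14.60, 14.95, 14.89, 14.89 and 14.87 at week 10 and 14.52, 14.32, 14.30 and 14.23 at week 19. This was the smallest change called among the named genes, 1.41-fold (-0.50 ± 0.14, adjusted p = 0.0377). It passed in 2 of the 9 fits that each left out 1 array (adjusted p up to 0.1). The clone 2700081O15Rik (NM_175381.3) measured 14.10, 14.24, 14.65, 14.28 and 14.76 at week 10 and 13.89, 13.26, 13.05 and 13.52 at week 19, a fall of 1.97-fold (-0.98 ± 0.23, adjusted p = 0.0162) that did not pass without week 19 replicate 2 or 3 (adjusted p = 0.0512 and 0.0617). The olfactory receptor gene Olfr1189 (NM_146772.1) measured 10.12, 9.01, 9.46, 9.88 and 9.78 at week 10 and 8.46, 9.26, 8.23 and 7.78 at week 19, where only replicate 2 was above background. It fell 2.33-fold (-1.22 ± 0.36, adjusted p = 0.0422) with overlapping ages, and passed in 2 of the 9 fits with an array left out (adjusted p up to 0.117). With scan day in the fit none of Akap7 (-0.95, adjusted p = 0.074), 2700081O15Rik (-0.83, adjusted p = 0.063), Olfr1189 (-1.05, adjusted p = 0.133) and Ddx28 (-0.41, adjusted p = 0.122) passed.

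Several cell type lists had measured members of which none was called. All 5 hair genes were lower at week 19, with a median log2 change of -3.84, and none passed. The hair keratin Krt25 measured 18.74, 17.62, 8.32, 15.33 and 8.06 at week 10, where replicates 3 and 5 were not above background. Krt27, Krtap4-7 and Krtap6-1 had the same pattern, so replicates 1, 2 and 4 are described here as carrying hair signal. Krtap3-3 differed, being above background on every array of both ages (14.06 and 13.63 in week 10 replicates 3 and 5). At week 19 Krt25 measured 9.87, 8.48, 10.46 and 10.30, above background in replicates 1, 3 and 4. Of this list Krtap4-7 (-4.10 ± 1.40, adjusted p = 0.0716) and Krtap6-1 (-2.38 ± 0.95, adjusted p = 0.117) had the smallest p, and neither was above background on any week 19 array. Without week 10 replicates 1, 2 and 4 Pcdha3 (-1.48, adjusted p = 0.0731), Sult5a1 (-1.06, adjusted p = 0.118), Mup1 (-0.46, adjusted p = 0.265), Olfr1189 (-1.19, adjusted p = 0.134) and Ddx28 (-0.54, adjusted p = 0.0928) no longer passed, as was the case for H2-Q8 and Trim34a.

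None of the 3 imprinted genes passed, with a median of -0.73. Ndn, a growth suppressor expressed from the paternal allele, had a change of -0.93 ± 0.36 (adjusted p = 0.107) with no overlap between the ages, and Peg12 one of -0.73 ± 0.31 (adjusted p = 0.136). The alpha-globin gene Hba-a1, a measure of blood in the sample, had a change of -0.39 ± 0.30 (adjusted p = 0.447). The stress response gene Jun had one of 0.30 ± 0.32 (adjusted p = 0.589), and the basal epithelial galectin Lgals7 one of 0.23 ± 0.16 (adjusted p = 0.391). In all, 36 of the 467 genes of 20 lists were measured. Lists with no measured member, among them those of T cells, B cells, macrophages, vessels, muscle and the cell cycle, were not analysed here.

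Nearest above the threshold were Dcaf12l1 (1.52 ± 0.47, adjusted p = 0.0513), Tmem254a (0.83 ± 0.26, adjusted p = 0.0546) and Lgals1 (-0.82 ± 0.26, adjusted p = 0.0558). Lgals1 encodes galectin-1, a lectin of stromal cells, and stood at 19.29 ± 0.41 at week 10 and 18.47 ± 0.27 at week 19.

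The 4 week 19 animals differed in how far they lay from week 10. Measured as the median over the probes called higher, they stood 1.49, 1.60, 1.73 and 1.46 log2 units above the week 10 mean in order of replicate. Over the probes called lower the medians were -0.97, -1.18, -1.45 and -0.96. These probes were chosen by the same contrast, so the medians are a description. Replicate 3 was the highest of the 4 animals in 48.8% of the probes called higher and the lowest in 54.0% of those called lower, against at most 20.2% and 17.5% for any other animal. It held the highest values of Csn2, Csn1s2a, Csn1s2b and Wap and the lowest values of Ccl19, Ccl21a and Aoc3. The animal with the highest casein values thus had the lowest chemokine values of the 4, which is given with no test.

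Week 15 and week 22 values place the week 19 glands in the series. For the same called probes the 2 week 15 animals had medians of 0.11 and 0.07 over the higher set and 0.08 and 0.08 over the lower set, next to the week 10 mean. The 4 week 22 animals had medians of 1.15, 1.15, 1.52 and 1.67 over the higher set and -0.66, -0.56, -1.17 and -1.27 over the lower set. Between weeks 22 and 19 limma called none of the 20867 probes (0.0%), with 1527 at an unadjusted p under 0.05, and between 0 and 21 under the alternative settings. Among the 17 named genes called higher, the week 15 mean lay between the week 10 and week 19 means for 14, and the week 22 mean did so for 8. Among the 10 called lower the week 15 mean lay between them for 2 and the week 22 mean for 9. These probes and genes were chosen by the contrast of weeks 10 and 19, which by itself favours values of other ages lying between. The placements are therefore a description. From week 15 to week 19 Bcl2a1b rose by 1.35 ± 0.32 (adjusted p = 0.0193), Tnfsf13 by 1.14 ± 0.23 (adjusted p = 0.0117) and Lst1 by 1.27 ± 0.26 (adjusted p = 0.0132). The call of Bcl2a1b was lost without week 19 replicate 3 (1.29, adjusted p = 0.0509) and that of Tnfsf13 with array series in the fit (1.15, adjusted p = 0.0548). Over that interval Sox11 (-2.50 ± 0.57, adjusted p = 0.0178) and Pcdha3 (-2.02 ± 0.47, adjusted p = 0.0196) fell. Both calls were lost with array series in the fit (-2.47, adjusted p = 0.0628, and -1.65, adjusted p = 0.134) and with array weights (adjusted p = 0.0786 and 0.0522).

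Scan day and array series were set beside the changes. As a block in the fit, scan day left 17 of the 27 genes past the threshold and array series left 24. Within scan day 1, which compares 1 week 19 animal with 4 of week 10, and scan day 2, 3 against 1, the change was 5.42 and 3.78 for Ccl19, 5.14 and 4.42 for Ccl21a, and 1.92 and 2.02 for Bcl2a1b. The caseins differed more between days, at 2.23 and 7.05 for Csn1s2a and 2.16 and 5.25 for Csn2. The only week 10 array of scan day 2, replicate 5, was not above background for either casein (8.76 and 9.7). The larger changes of that day thus rest on 1 array near the floor. Within array series 3, 2 against 2, and series 4, 1 against 3, Csn2 changed by 4.14 and 6.47 and Ccl19 by 4.32 and 4.96. Aoc3 changed by -0.76 and -2.12 within the days and Pcdha3 by -2.63 and -0.99. The sign was the same in all 4 batches for each of the 27 genes. For the 24 genes whose ages do not overlap, the choice fixes that sign, so it is no measure of stability. When the fit was repeated 9 times, omitting another array of weeks 10 and 19 each time, 15 of the 27 genes always passed. Among them were the chemokine genes, the caseins Csn2 and Csn1s2a and the measured genes of the leukocyte list.

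**Figure D4:**
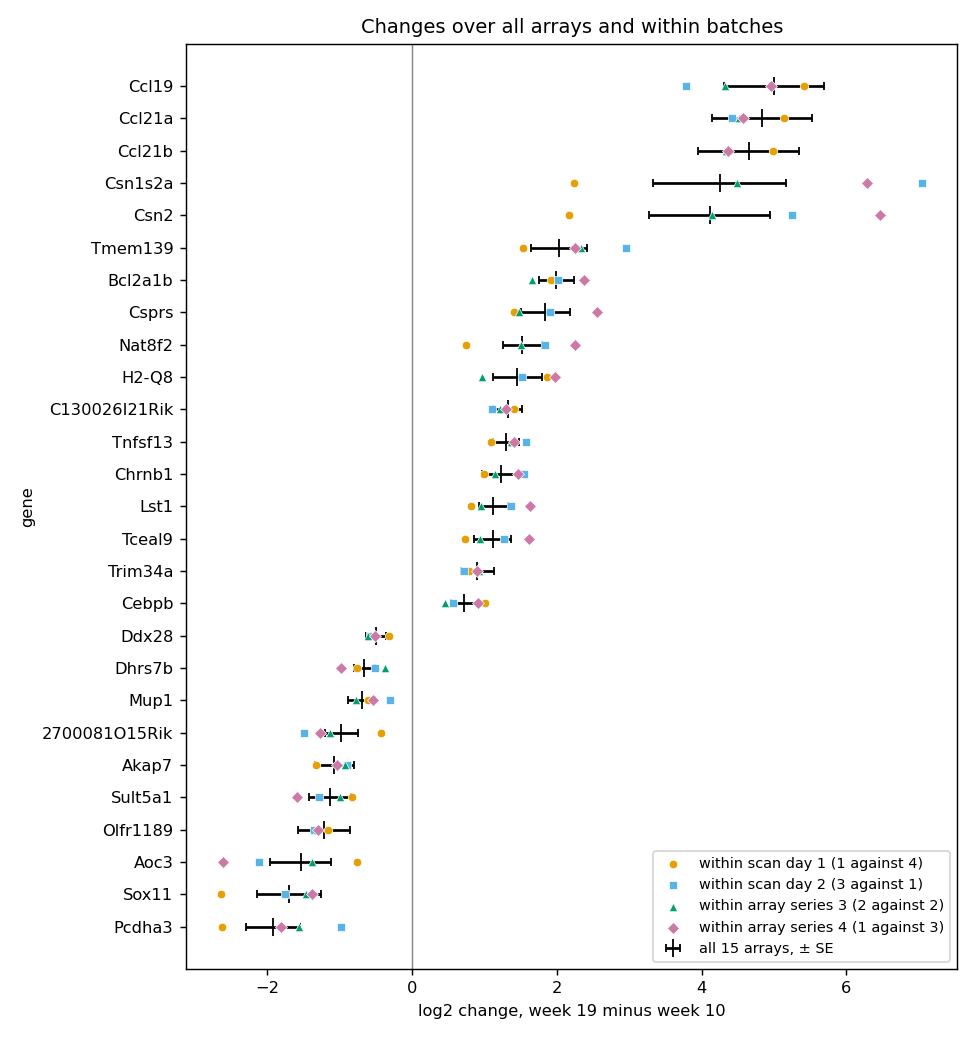
For each of the 27 named genes called, the log2 change from week 10 to week 19 over all arrays is shown with its SE, beside the change within scan days 1 and 2 and within array series 3 and 4. The points of each gene lie on the same side of 0, and those of Csn1s2a and Csn2 lie farthest apart.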

How the data were processed

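Total RNA of whole-mounted glands was labelled with digoxigenin and hybridised to single-colour AB1700 mouse arrays, per the labels' protocols. Per the file headers, the deposited array files hold a linear signal intensity per probe with its SD, beside a score for signal over noise and quality flags. In all probes with a signal-to-noise ratio under 1, 31.57% to 39.04% of an array, the deposited intensity equals its SD and marks a floor, not a level. The labels do not state how background was treated. The log2 values of the authors' table have a median of 10.03 on every array. Their ranks match those of the scanner signals (Spearman correlation of 1.0), the table's offset or floor is unknown, and it was used as an alternative.

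Groups came from the age in the source labels. Replicate numbers only follow the order of deposit. The intensities of 33012 probes, without 303 control spots, were taken to log2 and quantile normalized over the 15 arrays. Kept were 20867 probes that were above background on 50% or more of the arrays of any age. A single limma fit (version 3.58.1, R 4.3.3, lmFit and eBayes, two-sided) used age as 4 levels, with p-values adjusted by Benjamini-Hochberg over all kept probes. The pipeline was tested on simulated data, with 100 of 20867 probes changed by 1 log2 unit and 100 by 2. It called 28% and 75% of these, so a change that did not pass is not shown to be absent. Fewer probes were changed there than were called here. The exact permutation test used scipy 1.17.1.

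Gene names came from the RefSeq table of assembly GRCm38.p6, where 317 probes of 311 genes found a name and 32695 did not. Of these, 211 probes of 207 genes were kept, and the probe of highest mean signal stood for its gene. Every named gene that passed was reported, with the 3 genes nearest above the threshold, the 2 members of smallest p of each list that did not pass, and the 2 unnamed probes of smallest p in each direction. The 10 greatest changes each way were given by array. The comparison and the gene lists were chosen with earlier results of these data known. Alternatives covered normalization, an offset, filters, the authors' table, scan day and array series, the arrays in the fit, array weights, the variance model and left-out arrays.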

Additional observations from a re-analysis of the deposited data

Results flagged for a closer look

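Single arrays stood apart from the rest of their age in 7 of the 90 groups of values examined by Dixon's gap test, a rate that chance alone gives to about 1 group in 20. At week 19, Ccl19 in replicate 3 was the lowest at 15.63, with the nearest animal at 16.43. At week 10, replicate 1 was low for Ddx28 (14.60, nearest 14.87) and for Sox11 (9.03, nearest 10.43). Week 10 replicate 3 was high for Akap7 (12.99, nearest 12.18) and for Ndn (13.18, nearest 12.60). It was low for the secreted epithelial gene Wfdc2 (11.83, nearest 14.23) and for Jun (15.31, nearest 16.20).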

How the results depend on the processing

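No paired analysis was possible because replicates were numbered as deposited and the numbers link no animals. The number of arrays and, for dim genes, the signal over background limit the precision. Of the 27 named genes called, 14 passed under every alternative other than the fits within a batch, and none of the 27 changed direction. Fits within a batch use fewer arrays, and for the other changes below the cause was not tested. The 2612 calls became 1683 with scan day as a block, 4240 with array weights, 51 and 566 within scan days 1 and 2, 196 and 103 within array series 3 and 4, and 1415 to 2752 with an array left out. The 1519 higher calls became 45, 462, 177 and 96 within those batches and 998 to 1544 with an array left out. The 1093 lower calls became 686 with median centring, 678 without a filter, 612 with scan day as a block, 2088 with array weights, 6, 104, 19 and 7 within the batches and 417 to 1208 with an array left out. The 27 named genes became 17 with scan day as a block, 53 with array weights, 0, 6, 3 and 5 within the batches and 16 to 33 with an array left out. The 17 higher became 28 with array weights, 0, 5, 3 and 5 within the batches and 13 to 22 with an array left out. The 10 lower became 3 with scan day as a block, 25 with array weights, 0, 1, 0 and 0 within the batches and 3 to 11 with an array left out. Calls between weeks 22 and 19, 0 as reported, were 3 with median centring, 1 with an offset of 50, 4 at a signal-to-noise limit of 5, 1 with scan day as a block, 8 within scan day 1, 21 with array weights, 1 with a variance trend and 0 to 13 with an array left out. The difference in the share above background ranged from -0.38 to 0.93 percentage points with an array left out, and was -0.16 without week 10 replicate 2 and -0.38 without week 19 replicate 2. The sign turned for Jun within array series 3 (-0.10) and, without week 10 replicates 1, 2 and 4, for Krtap6-1 (0.05) and Wfdc2 (0.51). From week 19 to week 22 it turned within array series 4 for Csn2 (-1.76) and Csn1s2a (-1.27).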

Other observations

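Calls were not spread evenly over the kinds of probe. Of the probes with Celera gene numbers 12.9% were called, 1439 higher and 923 lower, and of those named by AK clone numbers 8.95% were called, 44 higher and 131 lower. The difference was not tested.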
